A study of Mus musculus with 7 samples.

Results

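The peak list of endogenous SET in mouse embryonic stem cells was set against the pooled peak lists of 2 HA-tagged SET isoforms. All 3446 peaks of the SET list were members, out of 6198 peaks in the 3 lists of the series that were analysed here. SET had been precipitated with an antibody against the protein itself from R1 cells, to which the labels assign no treatment. SETα and SETβ carried an HA tag, were overexpressed in KH2 cells, and were precipitated with an antibody against the tag. Doxycycline at 1 µg/mL was used to induce the isoforms, for 8 hours. The protocol text numbers its treated samples in a way that differs from the sample order, so the treatment was assigned here only where a sample's own entry includes that text, which is the case for both isoforms. KH2 is a line of mouse embryonic stem cells in common use for transgenes switched on by doxycycline. R1 is a standard line without that system. The 1186 SETα and 1566 SETβ peaks were pooled by joining intervals that shared at least 1 bp, which gave a union of 2574 intervals. Of these, 1008 came from SETα alone, 1389 from SETβ alone and 177 from both.

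SET is a histone chaperone of the nucleosome assembly protein family. It binds core histones and the linker histone H1 through an acidic surface and a strongly acidic C-terminal tail, and it is also known as an inhibitor of the phosphatase PP2A and of histone acetylation. SETα and SETβ are made from the same gene through different first exons, so that they differ at the N terminus and share the rest of the protein. An antibody against HA detects only the tagged copy and is blind to the SET that a cell makes from its own gene.

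Each list came from 1 library, so no difference below has a replicate check and no test between conditions was possible. Antibody, cell line, tag and induction all differ together between the SET list and the union, and their parts cannot be told apart. The 2 inputs and the 2 libraries of histone H1 were not analysed here. None of the 7 samples is an anti-HA library from cells without a tag. The depth of the libraries is unknown. Intervals given with shares are 95% Wilson intervals. They cover the counting of peaks only, since peaks of 1 library are not replicates. The files give the peak score without its scale, so scores were used mainly to order or divide peaks within the SET list. Positions are on mm9 and count from 1, and no gene was assigned to a peak because the gene table at hand is on another build.

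Few SET peaks met the union. At least 1 bp was shared by 184 of the 3446 SET peaks (5.34%, interval 4.64 to 6.14%), and by 184 of the 2574 union intervals (7.15%, 6.22 to 8.21%). The pairing was 1 to 1, as no SET peak met 2 intervals and no interval met 2 SET peaks. In bases, 24634 bp were shared, which is 3.74% of the 658 kb in SET peaks and 4.00% of the 616 kb in the union. Of the 184 SET peaks, 77 met peaks of both isoforms, 70 met SETβ only and 37 met SETα only. With SETα alone in place of the union the share of SET peaks was 3.31%, and with SETβ alone it was 4.27%.

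The overlapping SET peaks were short. Their median width was 111.5 bp (interquartile range 92 to 183.5 bp), against 200 bp (166 to 223 bp) for the 3262 SET peaks without overlap. The exact binomial intervals of these medians were 103 to 125 bp and 198 to 201 bp. A width of at most 100 bp was found for 69 of the 184 overlapping peaks (37.5%, interval 30.8 to 44.7%) and for 86 of the others (2.64%, 2.14 to 3.24%). Widths above 180 bp and up to 240 bp, the commonest in the list, held 58.7% of the peaks without overlap and 17.4% of those with it. By class of overlap, peaks that met SETβ only had a median of 102 bp (91.3 to 153.3 bp), those that met both isoforms 111 bp (92 to 190 bp), and those that met SETα only 132 bp (104 to 205 bp). The binomial interval of the last median, 112 to 201 bp, reached that of the peaks without overlap. Separate intervals thus did not show a shorter width for the 37 peaks with SETα only. An interval of the difference is not given for them.

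**Figure D1:**
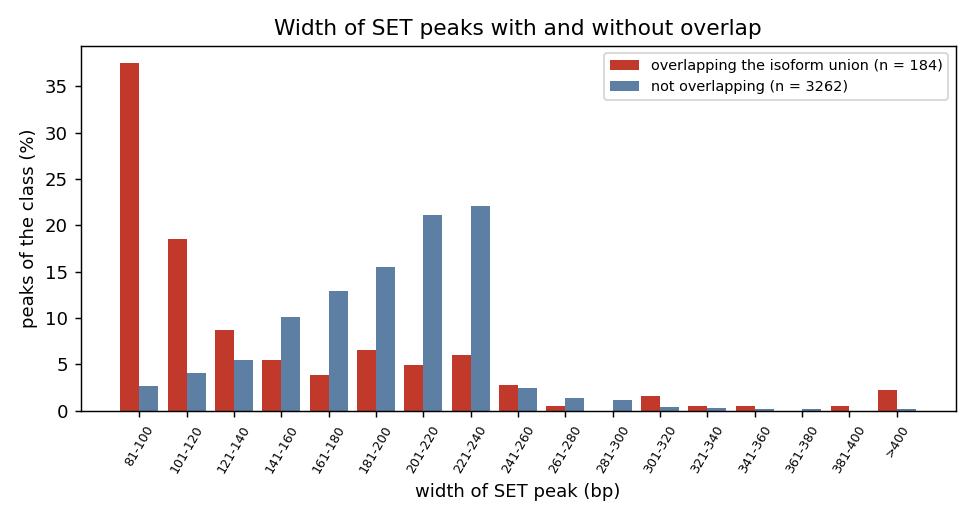
Width of SET peaks in steps of 20 bp (x axis), as the percentage of the 184 peaks that overlap the union (red) and of the 3262 that do not (blue). The red bars are tallest at 81 to 100 bp, with 37.5% of their class, and the blue bars at 221 to 240 bp, with 22.1% of theirs.

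Read the other way, the share with overlap fell and then rose with width. Of the 155 SET peaks of at most 100 bp, 44.5% (interval 36.9 to 52.4%) met the union. The share was 20.2% (14.9 to 26.9%) from above 100 to 120 bp and 8.21% (5.11 to 12.9%) from above 120 to 140 bp. Between 140 and 300 bp it was 55 of 2879 peaks, or 1.91% (1.47 to 2.48%). Above 300 bp it was 10 of 49 peaks, or 20.4% (11.5 to 33.6%). A longer peak can touch an interval with more bases, and whether width alone sets the share at the long end was not tested. Wide peaks were gathered on chromosome Y, with 11 of the 49. The share was 2 of 11 there (18.2%, 5.14 to 47.7%) and 8 of 38 elsewhere (21.1%, 11.1 to 36.3%), a difference within the counting error. The 8 include the widest peaks of the list, at 1106 and 823 bp, which lie close together on chromosome 2.

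**Figure D2:**
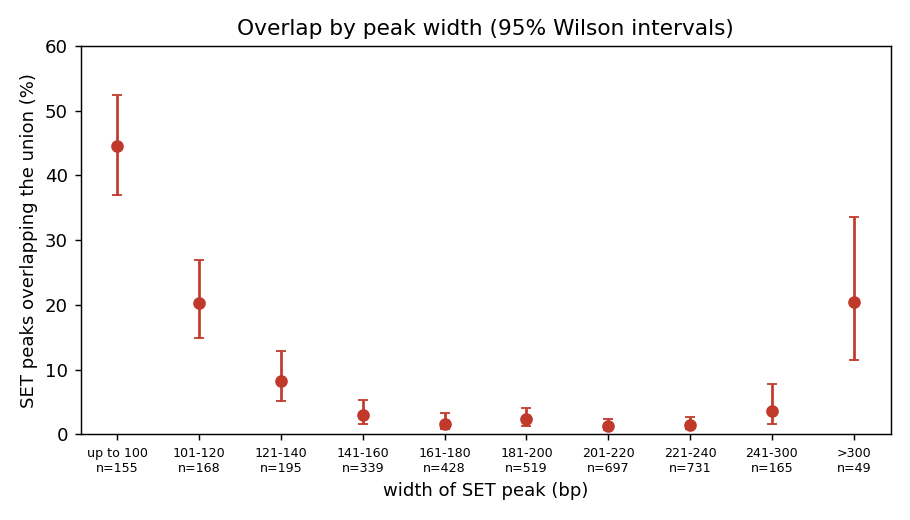
Percentage of SET peaks that overlap the union (y axis) by width class (x axis, bp, with the number of peaks), with 95% Wilson intervals as bars. The share is 44.5% in the shortest class, stays under 4% above 140 and up to 300 bp, and is 20.4% above 300 bp.

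Short peaks were also the high-scoring ones. The median score was 97.9 in SET peaks of at most 100 bp and 45.7 in those above 220 and up to 240 bp. The rank correlation of score and width was -0.41 over the 3262 peaks without overlap and -0.34 over the 184 with it. Both are descriptions of peaks that share a library. The list was therefore divided by score and then by width, at 140 bp, a limit chosen after the widths were seen. Under a score of 50, 4 of 59 short peaks (6.78%, interval 2.67 to 16.2%) and 10 of 2056 longer ones (0.486%, 0.264 to 0.893%) met the union. From 50 to under 60, it was 14 of 144 short peaks (9.72%, 5.88 to 15.7%) and 14 of 701 longer ones (1.997%, 1.19 to 3.32%). In both of these classes the short peaks had the higher share and the intervals did not overlap, though the first rests on 4 peaks. Medians of width under a score of 50 went the other way, at 220 bp (exact binomial interval 125 to 233 bp) for the 14 overlapping peaks and 209 bp (207 to 210 bp) for the 2101 others, with overlapping intervals. From 60 to under 100, the share was 21.3% of 253 short peaks (16.7 to 26.8%) and 16.6% of 151 longer ones (11.5 to 23.3%). At 100 or more, it was 75.8% of 62 (63.8 to 84.8%) and 80% of 20 (58.4 to 91.9%). In these upper classes the intervals overlapped, so these separate intervals did not show a difference by width at these numbers.

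**Figure D3:**
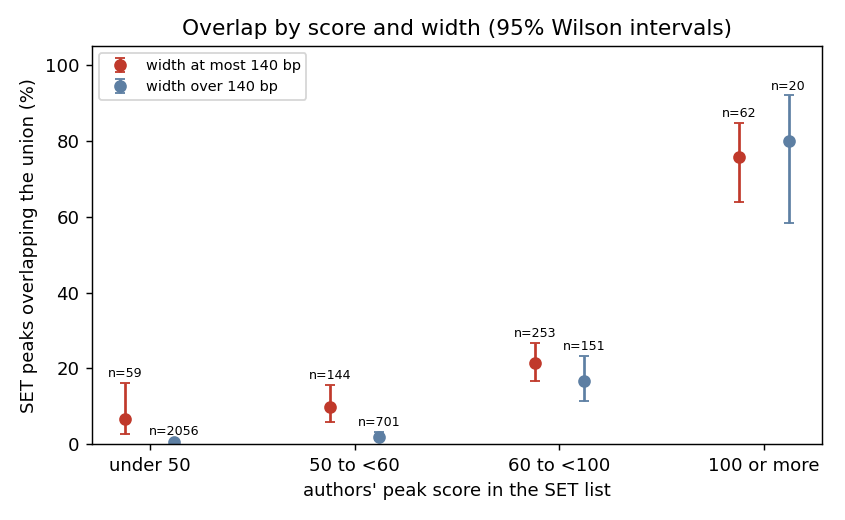
Percentage of SET peaks that overlap the union (y axis) in 4 classes of the authors' score (x axis), for peaks of at most 140 bp (red) and longer ones (blue), with 95% Wilson intervals and the number of peaks. Red lies above blue, with intervals apart, in the 2 classes under a score of 60, and the intervals overlap in the 2 classes above it.

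Peaks with exactly the same score allowed a closer look. The list holds 833 different scores for its 3446 peaks, and 5 scores were held by at least 5 overlapping and 5 other peaks. At 53.44, the 6 overlapping peaks had a median width of 136 bp and the 179 others 146 bp. At 113.77 the medians were 90 bp for 5 overlapping peaks and 106 bp for 9 others. The order turned at the scores in between. At 67.61 the medians were 126.5 bp for 8 overlapping and 119 bp for 76 other peaks, at 82.45 they were 99 bp for 10 and 96 bp for 25, and at 97.85 they were 96 bp for 12 and 85 bp for 27. At equal score, overlapping peaks were thus the shorter ones at 2 of the 5 scores and the longer ones at 3. The commonest score, 47.34, was held by 268 peaks, of which 1 met the union. Among peaks scoring at least 60 in every list, the difference in median width was -17 bp, where over the whole lists it was -88.5 bp.

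Overlap was nearly complete at the top of the SET list and rare below it. All 34 SET peaks that scored above 146.93 met the union, and the first peak without overlap stood at place 37. Of places 21 to 50, 24 of 30 overlapped (80%), of places 51 to 100, 26 of 50 (52%), and of places 101 to 200, 31 of 100 (31%). The share was 14% for places 201 to 500, 4.4% for places 501 to 1000, 0.7% for places 1001 to 2000 and 0.830% for the remaining 1446. The makeup of the overlap changed along the way. At a score of 100 or more, 40 of 63 overlapping peaks met both isoforms, 20 met SETβ only and 3 met SETα only. Under 50, 3 of 14 met both, 2 met SETβ only and 9 met SETα only. The median SET score was 102.2 for peaks with both isoforms, 82.5 with SETβ only and 59.5 with SETα only.

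The 10 places after the leading 10 of the overlapping SET peaks scored 199.4 or more and are not typical of all 184, whose median score was 82.5. Of these 10 peaks 8 met both isoforms, against 77 of the 184. The highest was on chromosome 17 at 7797304 to 7797423, a peak of 120 bp with a SET score of 246.5 that lay wholly inside an interval of 153 bp made by both isoforms. The second was on chromosome 6 at 15886045 to 15886144 (score 244.2), 100 bp inside an interval of 325 bp. A further peak on the same chromosome lay at 15481614 to 15481709 (217.6), 96 bp inside 278 bp. The peak on chromosome 14 at 14236499 to 14236597 (236) was 99 bp inside 152 bp, and that on chromosome 3 at 124106935 to 124107049 (230.6) was 115 bp inside 177 bp. On chromosome 8, the peak at 67733515 to 67733631 (208.6) was 117 bp inside 221 bp. These 6 peaks met both isoforms, as did the following 2. The peak on chromosome 4 at 30628760 to 30628949 (207.6) was the exception in position, with 133 of its 190 bp inside the interval. The peak on chromosome 6 at 103599064 to 103599293 (200.4) was longer than the rest, at 230 bp, inside an interval of 301 bp. The other 2 places met SETβ only, and are described next.

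SET peaks that met SETβ only reached higher scores than those that met SETα only. The highest of the former lay on chromosome X at 62071480 to 62071566, with 87 bp, a SET score of 217.6 and a SETβ score of 441.4. It was followed by a peak on chromosome 3 at 119071698 to 119071782 (85 bp, SET score 199.4). Next came 3 peaks at an equal SET score of 181.6. They were on chromosome 1 at 174574781 to 174574867, on chromosome 16 at 84490267 to 84490352, and again on chromosome 3, at 148297965 to 148298054. These 5 peaks were 85 to 90 bp wide. For SETα only, the highest was on chromosome 11 at 49433539 to 49433642, with 104 bp, a SET score of 142.4 and a SETα score of 102.6. The next lay on chromosome 18 at 43528987 to 43529185 (SET score 120.4) and on chromosome X at 113224566 to 113224659 (113.8). The last 2, both at a SET score of 97.9, were found at 111774201 to 111774331 of chromosome 1 and at 18764164 to 18764252 of chromosome 10. Whether the other isoform fell just short of a call at these sites was not tested.

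Where they met, SET peaks tended to sit inside the isoform interval and near its middle. The lists differ in width, with medians of 198 bp over all SET peaks and 244 bp over all union intervals. The whole SET peak lay inside the interval in 117 of 184 cases (63.6%), the whole interval lay inside the SET peak in 7, and the rest overlapped at an edge. The share inside was 59 of 77 for peaks with both isoforms (76.6%), 42 of 70 with SETβ only (60%) and 16 of 37 with SETα only (43.2%). The median width of the union interval fell in the same order, at 182, 164.5 and 137 bp. An interval of both isoforms runs between the outer edges of its joined peaks, so joining itself can only widen it. Whether these widths alone account for the shares inside was not tested. The SET peak was the narrower of the pair in 154 cases, with a median interval width of 165 bp and a median excess of 54.5 bp. Midpoints lay a median of 17 bp apart (upper quartile 38.1 bp), within 10 bp in 69 pairs and within 50 bp in 149. The SET midpoint was to the left in 94 pairs and to the right in 87. Shallow contacts were few. Less than 50% of the SET peak was covered in 8 pairs, of which 5 were with SETα only, and the smallest contact was 7 bp.

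The order of scores was partly shared between the lists. Over the 147 SET peaks that met SETβ, the rank correlation of the SET and SETβ scores was 0.57, and over the 114 that met SETα it was 0.53. Against the highest isoform score of each interval it was 0.58 over all 184 pairs. These values are descriptions across peaks of single libraries. The widths of the 2 partners were less alike in order, with a rank correlation of 0.31.

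The isoform intervals that met SET were also the shorter ones by median. Their median width was 165 bp (interquartile range 145 to 237.8 bp), against 248 bp (190 to 286 bp) for the 2390 intervals that did not. The same order held within each source. The medians were 136.5 and 232 bp for intervals of SETα alone and 164.5 and 266 bp for SETβ alone. For intervals of both isoforms they were 182.5 bp (exact binomial interval 164 to 221 bp) and 216 bp (187 to 244 bp), so that these 2 intervals overlapped. Intervals of at most 140 bp met SET in 14.9% of 296 cases (interval 11.3 to 19.4%), those above 140 and up to 160 bp in 17.7% of 198 (13.0 to 23.6%), and those above 240 and up to 300 bp in 2.49% of 845 (1.63 to 3.77%). Above 300 bp it was 4.80% of 500 (3.25 to 7.04%), so the share did not fall steadily with width. The isoform intervals were not divided by score. Score and width were linked in the SET list, so the part of each cannot be told apart here.

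By chromosome, overlap was low on every autosome and higher on X. On the 19 autosomes together 170 of 3388 SET peaks met the union (5.02%, interval 4.33 to 5.81%). The values ran from 2.33% on chromosome 19 (2 of 86 peaks) to 8.74% on chromosome 9 (16 of 183, 5.45 to 13.7%). The interval of 18 autosomes held the common share, which does not show that their shares are alike. The exception was chromosome 9, by a narrow margin. On chromosome X, 11 of 31 SET peaks met the union (35.5%, 21.1 to 53.1%), and its interval stood apart from that of every autosome. The difference from the autosomes was 30.5 percentage points, with a 95% Newcombe interval of 16.1 to 48.0 points for counting alone. With SETα alone in place of the union, the share on X was 16.1% (5 of 31 peaks), and with SETβ alone 25.8% (8 of 31). Chromosome Y held 3 overlapping peaks among 27 (11.1%, 3.85 to 28.1%).

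**Figure D4:**
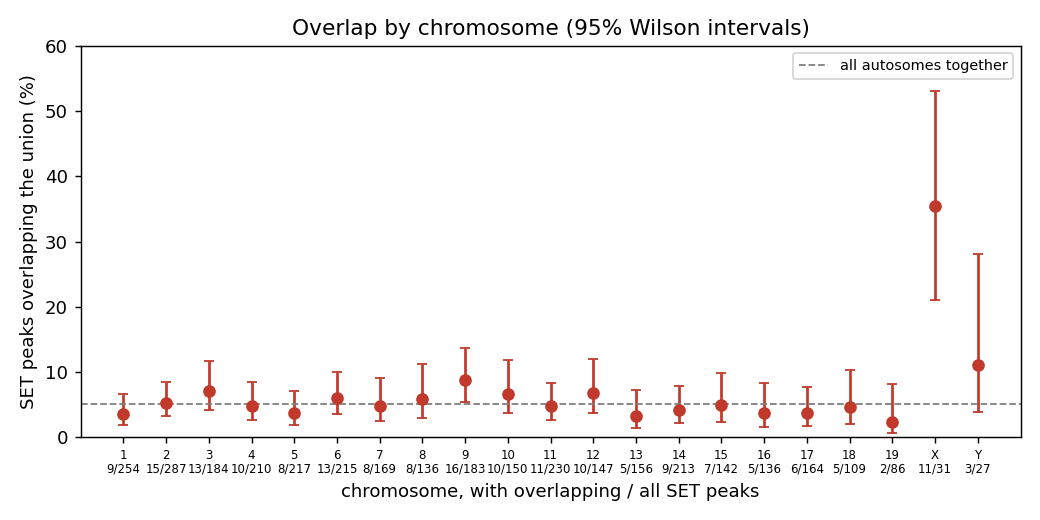
Percentage of SET peaks that overlap the union (y axis) on each chromosome (x axis, with overlapping and all SET peaks), with 95% Wilson intervals as bars and the share of all autosomes, 5.02%, as a dashed line. Chromosome X lies at 35.5%, above the autosomes, which run from 2.33 to 8.74%.

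Against the whole union, the higher share on X was found at low and at high SET scores. Under a score of 60, 6 of 25 X peaks met the union (24%, interval 11.5 to 43.4%), against 34 of 2919 autosomal peaks (1.16%, 0.835 to 1.62%). At 60 or more it was 5 of 6 (83.3%, 43.6 to 97.0%) against 136 of 469 (29.0%, 25.1 to 33.3%). The high-score part was less firm when the isoform peaks also had to score 60 or more. Then 3 of 6 X peaks met the union (50%, 18.8 to 81.2%). That interval holds the 27% found over all chromosomes with the same cut. The overlapping X peaks were short, with a median of 117 bp, against 204.5 bp for the 20 others. Their median score of 53.3 was below the 82.5 of the autosomal ones. The X peaks at 62071480, with SETβ only, and 113224566, with SETα only, were named above. Peaks of 110 bp at 139917547 to 139917656 (SET score 53) and 117 bp at 67323282 to 67323398 (51.6) met both isoforms. A pair at 121303135 to 121303222 and 121304730 to 121304950 met SETα and SETβ respectively, the second by 14 bp. These X peaks were chosen for naming after their values were seen. Chromosome X carried 39 union intervals, of which 11 met SET (28.2%, 16.5 to 43.8%).

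On chromosomes 1 and 8, where the isoform lists are dense, the share of SET peaks that met the union differed from that elsewhere by less than the counting error. The share was 17 of 390 (4.36%, interval 2.74 to 6.87%), against 153 of 2998 on the other autosomes (5.10%, 4.37 to 5.95%). The difference was -0.744 points, with a Newcombe interval from -2.57 to 1.87 points. The interval includes 0 and does not show that the shares are alike. Seen from the union, the 2 chromosomes held 678 intervals, or 26.3% of it, and 17 of them met SET (2.51%, 1.57 to 3.98%). Of the 1847 intervals on the other autosomes 153 did (8.28%, 7.11 to 9.63%), and these intervals did not overlap. Of the SET peaks on chromosomes 1 and 8 that scored under 60, 1 of 339 met the union, and of those at 60 or more, 16 of 51 (31.4%, 20.3 to 45.0%). On the other autosomes these were 33 of 2580 and 120 of 418 (28.7%, 24.6 to 33.2%).

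SET peaks without overlap mostly lay far from the union. The gap, counted as the bases between the nearest edges, had a median of 329 kb (interquartile range 126 to 725 kb) over the 3262 peaks, and the longest was 7885 kb. Within 10 kb lay 128 peaks (3.92%, interval 3.31 to 4.65%), within 1 kb 24 (0.736%) and within 100 bp 4 (0.123%). Allowing a gap of 1 kb would have raised the share of SET peaks that count as overlapping from 5.34% to 6.04%. The nearest other SET peak was closer, at a median of 192 kb, in a list with more members than the union. The nearest SETβ peak lay at a median of 552 kb and the nearest SETα peak, in the shortest list, at 774 kb. From the union side, the 2390 intervals without overlap lay a median of 243 kb from a SET peak.

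**Figure D5:**
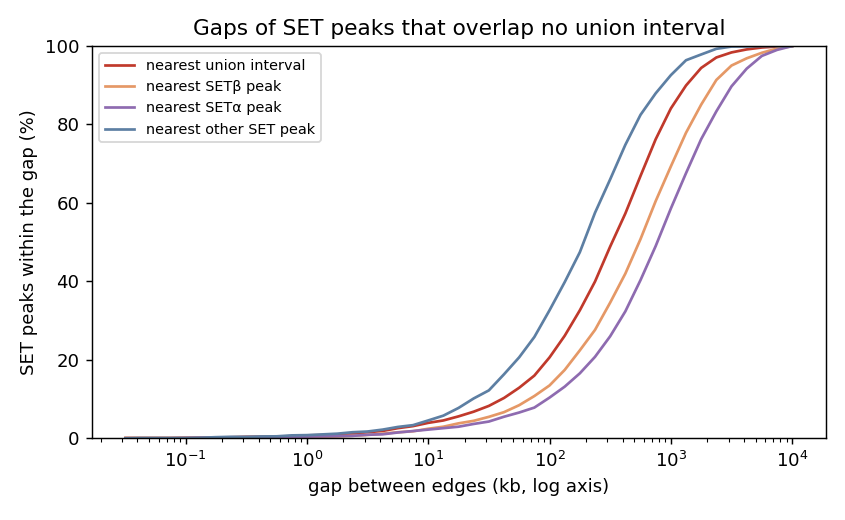
Cumulative percentage (y axis) of the 3262 SET peaks without overlap that lie within a given gap (x axis, kb, log scale) of the nearest union interval, SETβ peak, SETα peak or other SET peak. All curves stay under 5% at 10 kb and rise between 100 and 1000 kb, in the order other SET peak, union, SETβ, SETα.

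By its median, the gap varied little with score and width and more with chromosome. The median was 326 kb for peaks under a score of 60 and 345 kb for those at 60 or more, and 330.0 kb for peaks of at most 140 bp and 326 kb for longer ones. At short gaps the shares within 1 kb differed by score, with intervals apart, while those within 10 kb had overlapping intervals. Within 1 kb lay 8 of 344 peaks at 60 or more (2.33%, interval 1.18 to 4.52%) and 16 of 2918 under 60 (0.548%, 0.338 to 0.889%), and within 10 kb 6.10% (4.03 to 9.15%) and 3.67% (3.04 to 4.41%). Without chromosome Y, a division made after seeing the data, the shares within 1 kb were 3 of 334 (0.898%, 0.306 to 2.61%) and 14 of 2904 (0.482%, 0.287 to 0.808%), with overlapping intervals, and those within 10 kb were 3.29% and 3.31%. On chromosomes 1 and 8 the median was 146 kb and 7.24% of 373 peaks (interval 5.02 to 10.3%) lay within 10 kb. On the other autosomes these were 371 kb and 2.78% of 2845 (2.23 to 3.45%). Among single autosomes the median ran from 146 kb on chromosome 8 to 672 kb on chromosome 12. On X the 20 peaks without overlap had a median gap of 1325 kb. There, 1 of these 20 peaks lay within 10 kb of the union, beside the 11 that met it.

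Chromosome Y supplied many of the near positions. Of its 27 SET peaks, 22 lay between 2854131 and 2889409, a stretch of 35.3 kb that also held 5 of the 10 union intervals of that chromosome. The 24 Y peaks without overlap had a median gap of 2.9 kb, and 21 of them were within 10 kb. Without chromosome Y the share within 10 kb was 3.30% (107 of 3238 peaks). In that stretch 11 SET peaks were over 300 bp wide. The widest SET peak without overlap was among them, at 2884500 to 2885161, with 662 bp, a score of 113.8 and a gap of 301 bp. Its neighbour at 2883448 to 2884078, with 631 bp and a SET score of 117.9, lay wholly inside a SETβ interval. The neighbour at 2882704 to 2883135, with 432 bp, shared 415 bp with a SETα interval.

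The 5 smallest gaps belonged to peaks of low score and usual width. Such values were common among all 3262 peaks without overlap, whose medians were a score of 47.3 and 200 bp. Among the 24 peaks within 1 kb, 8 scored 60 or more, against 344 of the 3262, and 7 of the 24 lay on chromosome Y. On chromosome 13 a SET peak at 23492415 to 23492593 (score 43.3) ended 1 bp short of an interval of both isoforms, 482 bp long. On chromosome 1 the peak at 107461504 to 107461722 (46.7) lay 24 bp from a SETβ interval, on chromosome 17 the peak at 23685261 to 23685481 (43.3) lay 90 bp from an interval of both isoforms, and on chromosome 7 the peak at 144767130 to 144767336 (47.8) lay 98 bp from a SETβ interval. The fifth, on chromosome 9 at 106104690 to 106104899 (42.6), lay 120 bp from a SETα interval. These 5 peaks were 179 to 221 bp wide. Just inside the 1 bp rule, the shallowest contact covered 7 bp.

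The 10 highest SET peaks without overlap scored from 113.8 to 146.9, and their gaps to the union ran from 158 bp to 1739 kb. The first was on chromosome 5 at 115769236 to 115769329, with 94 bp, a score of 146.9 and a gap of 1486 kb. At an equal score of 130.1 followed peaks on chromosome 10 at 49222068 to 49222151 (84 bp, gap 1209 kb), chromosome 15 at 86187166 to 86187266 (101 bp, 1522 kb), chromosome 4 at 56214568 to 56214670 (103 bp, 1739 kb), chromosome 8 at 3286393 to 3286479 (87 bp, 984 kb) and chromosome 9 at 28592038 to 28592135 (98 bp, 799 kb). The peak on chromosome 17 at 79487131 to 79487315 (185 bp, score 117.7) differed from these, with a SETα interval 158 bp away. The wide Y peak came next, and then peaks on chromosome 10 at 23247847 to 23247952 (106 bp, gap 223 kb) and chromosome 11 at 63085637 to 63085724 (88 bp, 430.3 kb), both at 113.8. In width, 8 of these 10 peaks, at 84 to 106 bp, lay near the median of 97 bp of the overlapping peaks that scored 100 or more. The 19 peaks without overlap in the same score class, which include these 10, had a median of 103 bp.

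The widest peaks with overlap were led by 2 on chromosome 2, at 98506390 to 98507495 (1106 bp, inside an interval of 1171 bp) and at 98502318 to 98503140 (823 bp, sharing 792 bp). On chromosome 9, the peak at 35112793 to 35113177 had 385 bp and a SET score of 73.8, inside an interval of 418 bp. The widest without overlap included 3 further Y peaks, at 2857354 to 2857999 (646 bp), 2876932 to 2877493 (562 bp) and 2854131 to 2854562 (432 bp). Outside chromosome Y, the widest peak without overlap was on chromosome 1 at 36674619 to 36675091, with 473 bp, a score of 105.9 and a gap of 354 kb. Leaving out the stretches of chromosome 2 around the former 2 peaks and of chromosome 9 at the start of its assembled sequence, in all lists, took away 5 SET peaks, all overlapping. The share with overlap was then 5.20% and the difference in median width -89 bp.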

How the data were processed

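ChIP-seq peak lists of 3 of the 7 samples were analysed. Per the submitters' processing notes, Bowtie 0.12.7 and MACS 1.4 were used on mm9. Parameters and the role of the inputs are not given in the sources used here, and read depth is unknown. The deposited lists give each peak's position and the authors' score, whose lowest value was 40.01 for SET, 40.01 for SETα and 40 for SETβ. Such a score can rise with depth, so it was used mainly to order or divide peaks within a list. Scores were used across lists in 2 places, to take the higher isoform score of a merged interval and, in an alternative, to keep peaks scoring 60 or more in all 3 lists, where an equal score need not mean an equal signal.

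SETα and SETβ peaks were merged where they shared at least 1 bp, and SET peaks were compared with the union by overlap, width, chromosome and gap. No test was run, as each group had 1 library. The code was checked on simulated lists and against bedtools 2.31.1. Computing was done in Python 3.11.15 with pandas 2.3.3, scipy 1.17.1 for the intervals, numpy 2.4.6, and figures in matplotlib 3.10.9. Named regions are the overlapping SET peaks at places 11 to 20 by score, the 5 highest with each isoform alone, the 10 highest without overlap, the 5 smallest gaps, and the 5 widest with and without overlap. Members, lists and classes were chosen with earlier results of these data known. The alternatives left out chromosome 2 from 98.4 to 98.6 Mb and chromosome 9 from 2.9 to 3.1 Mb.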

Additional observations from a re-analysis of the deposited data

How the results depend on the processing

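Of 59 alternative values for 8 results, 37 stayed within the interval of the value reported (for the rank correlation, within 0.1 of it) and 22 moved outside it. With peaks scoring 60 or more in all lists, 27.0% of SET peaks and 14.4% of union intervals overlapped, the width difference was -17 bp, the median gap 1088 kb, the share within 10 kb 1.41%, and the difference between chromosomes 1 and 8 and the other autosomes -4.22 points. With each list at the length of the shortest, 13.9% of SET peaks overlapped, the width difference was -52 bp, the median gap 419 kb and the share on chromosome X 53.3%. Both cuts remove the low-scoring SET peaks, of which few overlap. They also thin the union, from 2574 intervals to 911 and 2206 respectively. The part of each in these shifts, those of the gap included, was not tested. With SETα alone, overlap was 3.31% of SET peaks and 9.61% of SETα peaks, the median gap 772 kb, the share within 10 kb 2.22% and the share on X 16.1%. With SETβ alone these were 4.27%, 9.39%, 551 kb and 2.52%, and X stayed within its interval. A single list holds fewer intervals than the union. Without chromosomes 1, 8, X and Y the median gap was 371 kb and the share within 10 kb 2.78%, and without chromosome Y, an alternative chosen after seeing the data, that share was 3.30%. Overlap of at least 50% of the SET peak, a midpoint rule and the omission of the stretches of chromosomes 2 and 9 moved no result outside its interval. Read depth is unknown, so a SET peak without overlap is a site not called in the isoform lists. The 31 peaks on X limit the precision there.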
